A study of Mus musculus with 5 samples.

Results

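The 8 genes described here encode classical proteins that show peptides to T cells in the mouse, their partner chains and a secreted class I heavy chain. They were taken by symbol from the 27998 genes of the deposited count matrices. For class II they are H2-Aa and H2-Ab1, the alpha and beta chains of the I-A molecule, H2-Eb1, the beta chain of I-E, and Cd74, the invariant chain. For class I they are H2-K1 and H2-D1, the classical heavy chains, B2m, the beta-2-microglobulin light chain, and H2-Q10, a secreted class I heavy chain best known from liver. All 8 were found, and the files list 28 further genes whose symbol begins with H2-.

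Class I molecules carry peptides from inside the cell and are made by nearly every nucleated cell, while germ cells of the testis are known for low levels of them. Class II molecules carry peptides taken up from outside, need the invariant chain during assembly, and are mainly made by macrophages, dendritic cells and B cells. The mouse testis holds resident macrophages between its tubules, known for little class II, and others lying on the tubule wall, known to carry it.

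Whole testes of synchronized mice were dissociated at 0 h (labelled Control) and at 144, 350.4, 556.8 and 763.2 h (labelled EP1 to EP4), which the design places at successive returns of stages VIII and IX of the seminiferous cycle, with 1 droplet library per time and 5 libraries in all. Enzymes (collagenase with DNase, later trypsin) freed the cells, and between them the settled tubules were washed by repeated removal of the fluid above, in which cells lying between tubules can be lost. The sources used here do not give strain, age, the method of synchronization or whether animals were pooled. As each time is 1 library, time, animal and preparation cannot be told apart, no p-value is given, and every interval is an exact 95% interval that covers counting error only.

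The 5 libraries held 7441 to 11987 barcodes and 75578147 to 118147393 transcript counts (unique molecular identifiers, UMIs). Of these, 7719, 6355, 4695, 8404 and 11036 cells were kept in order of time, with median depths of 4120, 12601, 6350, 5982 and 3054 UMIs. Pairs of libraries shared 11 to 37 barcodes. The cells fell into 65 clusters, formed without the H2- and antigen presentation genes and named from marker genes. Macrophage-like cells numbered 279, 37, 28, 22 and 19, and all 12 macrophage markers were seen in each library, with a summed level of 12600.2 to 33650 CPM there (the gene's UMIs scaled to a fixed total of UMIs of the same cells, the usual CPM) against 7.61 to 25.4 CPM in the other cells. Sertoli-like cells, the supporting cells of the tubule, numbered 2824, 2387, 568, 48 and 15. Germ cell stages are named the same way, so that early meiotic cells, for example, are cells like that stage by their markers.

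The class II genes lie on mouse chromosome 17 of GRCm38 except Cd74, H2-Ab1 at chr17:34257689-34269419 on the plus strand, H2-Aa at chr17:34282744-34287823 on the minus strand and H2-Eb1 at chr17:34305867-34316674 on the plus strand. The class I heavy chains are on the same chromosome, H2-K1 at chr17:33996017-34000347 on the minus strand, H2-D1 at chr17:35262730-35267499 and H2-Q10 at chr17:35470089-35474563, both on the plus strand, while B2m is at chr2:122147686-122153083 on the plus strand. Of the 8 members, 6 had a RefSeq promoter entry and H2-Ab1 and Cd74 are named only. Over all barcodes the 5 libraries held 1380 UMIs of H2-Aa, 6841 of H2-Ab1, 1252 of H2-Eb1, 3815 of Cd74, 44098 of H2-K1, 12688 of H2-D1, 8448 of H2-Q10 and 19888 of B2m. H2-Eb1 overlaps the antisense gene Gm20513 (74 UMIs) and B2m overlaps Patl2 on the other strand (677 UMIs), and the sources used here do not say whether the counting used strand. In the last 500 bases of the annotated transcripts, 127 of the 1323 stretches of 50 letters of H2-K1 (9.60%) and 76 of the 852 of H2-D1 (8.92%) also occur in other genes, H2-D1 and H2-K1 among them. For H2-Q10 it was 2 of 526, shared with H2-Q7, and for the other members none. Reads from such stretches, mostly of H2-K1 and H2-D1, do not tell the gene by these letters. The sources used here do not say how the counting treated them.

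The promoters of both class II chains below are shown because the letters searched for stood at almost the same spacing in both, within the RefSeq windows of GRCm38.p6 that run from 250 bases before to 50 after the annotated start. Capitals mark GCAACT, the core of the X box, and CTGATTGG, the Y box, both background names for class II control elements. H2-Aa is at chr17:34287774-34288073 on the minus strand and H2-Eb1 at chr17:34305617-34305916 on the plus strand. The letters GCAACT began at −81 in H2-Aa and −91 in H2-Eb1, and CTGATTGG at −51 and −62, counted from the start site. Searched on both strands, GCAACT stood in 10.9% of the 32851 windows of all genes, CTGATTGG in 4.1%, and both in 0.466%.
H2-Aa: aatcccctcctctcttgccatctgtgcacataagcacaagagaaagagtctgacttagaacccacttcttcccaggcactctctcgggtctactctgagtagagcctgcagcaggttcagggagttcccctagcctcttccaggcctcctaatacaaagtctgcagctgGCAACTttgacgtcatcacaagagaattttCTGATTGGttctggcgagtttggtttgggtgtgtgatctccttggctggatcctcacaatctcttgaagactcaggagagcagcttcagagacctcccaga
H2-Eb1: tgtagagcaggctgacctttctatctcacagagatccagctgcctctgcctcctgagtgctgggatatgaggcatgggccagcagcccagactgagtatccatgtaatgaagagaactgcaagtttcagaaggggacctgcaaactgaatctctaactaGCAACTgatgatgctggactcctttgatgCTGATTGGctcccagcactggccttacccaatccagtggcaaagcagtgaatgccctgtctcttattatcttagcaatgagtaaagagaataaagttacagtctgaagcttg

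The 3 class I heavy chain promoters are shown because the secreted H2-Q10 differs in letters from the pair expressed more widely. Capitals mark GGATTCCCC, a kappa-B type motif, TTTCACTT, an interferon response type motif, and CCAAT on either strand. H2-K1 is at chr17:34000298-34000597 on the minus strand (the first of 2 entries), H2-D1 at chr17:35262844-35263143 and H2-Q10 at chr17:35469839-35470138, both on the plus strand. Among all windows GGATTCCCC stood in 0.283%, TTTCACTT in 1.6%, CCAAT in 37.4% and all 3 together in 0.0122%, which is 4 windows. H2-K1 and H2-D1 held all 3, with GGATTCCCC beginning at −109 and −169 and TTTCACTT at −90 and −150. H2-Q10 held TTTCACTT, beginning at −155, and neither of the others. Against H2-D1, with positions counted from 1 at the first letter of the motif, H2-Q10 carried T4C there at the place of GGATTCCCC. The B2m window held 1 CCAAT and neither of the other 2 motifs. CTGATTGG contains CCAAT on the opposite strand, so those searches overlap. The letters CTGATTGG are not limited to the class II windows. On the minus strand they also stood in the windows shown of H2-K1, at 9, and H2-D1, at −53. These are matches of letters and not measured sites.
H2-K1: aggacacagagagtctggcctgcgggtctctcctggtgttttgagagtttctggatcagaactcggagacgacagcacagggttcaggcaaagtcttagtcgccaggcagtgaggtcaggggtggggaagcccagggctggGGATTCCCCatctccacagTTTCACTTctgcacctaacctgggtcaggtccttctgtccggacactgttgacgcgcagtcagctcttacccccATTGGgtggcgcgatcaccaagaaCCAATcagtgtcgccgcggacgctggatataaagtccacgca
H2-D1: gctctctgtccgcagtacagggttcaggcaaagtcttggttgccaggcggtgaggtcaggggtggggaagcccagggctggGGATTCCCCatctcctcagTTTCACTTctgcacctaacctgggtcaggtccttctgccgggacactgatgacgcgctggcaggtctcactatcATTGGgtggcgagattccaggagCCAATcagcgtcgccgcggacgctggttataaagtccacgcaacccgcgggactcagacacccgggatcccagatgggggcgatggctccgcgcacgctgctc
H2-Q10: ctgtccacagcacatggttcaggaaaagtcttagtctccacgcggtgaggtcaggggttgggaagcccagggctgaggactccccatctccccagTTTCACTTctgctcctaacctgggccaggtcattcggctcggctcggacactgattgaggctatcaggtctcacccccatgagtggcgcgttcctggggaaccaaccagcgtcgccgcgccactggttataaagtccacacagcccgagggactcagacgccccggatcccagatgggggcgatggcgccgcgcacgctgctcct

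Summed over every barcode, the levels of the 8 genes moved in different ways along the 5 times. H2-Q10 stood at 47.7, 41.2, 1.91, 0.237 and 0.0514 CPM and B2m at 99.4, 76.3, 21.98, 7.91 and 6.63 CPM, both lowest at 763.2 h. H2-K1 stood at 28.1, 139, 95.4, 100.1 and 45.5 CPM, highest at 144 h. H2-Ab1 stood at 2.84, 12.97, 12.2, 19.9 and 14.1 CPM, while its partner chain H2-Aa stayed between 1.11 and 4.04 CPM. H2-D1 ranged from 7.21 to 53.2 CPM, Cd74 from 2.70 to 12.9 CPM and H2-Eb1 from 0.965 to 3.30 CPM. In such sums fewer cells of a type and less RNA per cell cannot be told apart. The kept cells that carried a germ cell name made up 23.3% at 0 h and 44.7, 84.6, 95.3 and 93.2% at the later times, so the levels are given by class of cells from here on.

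**Figure D1:**
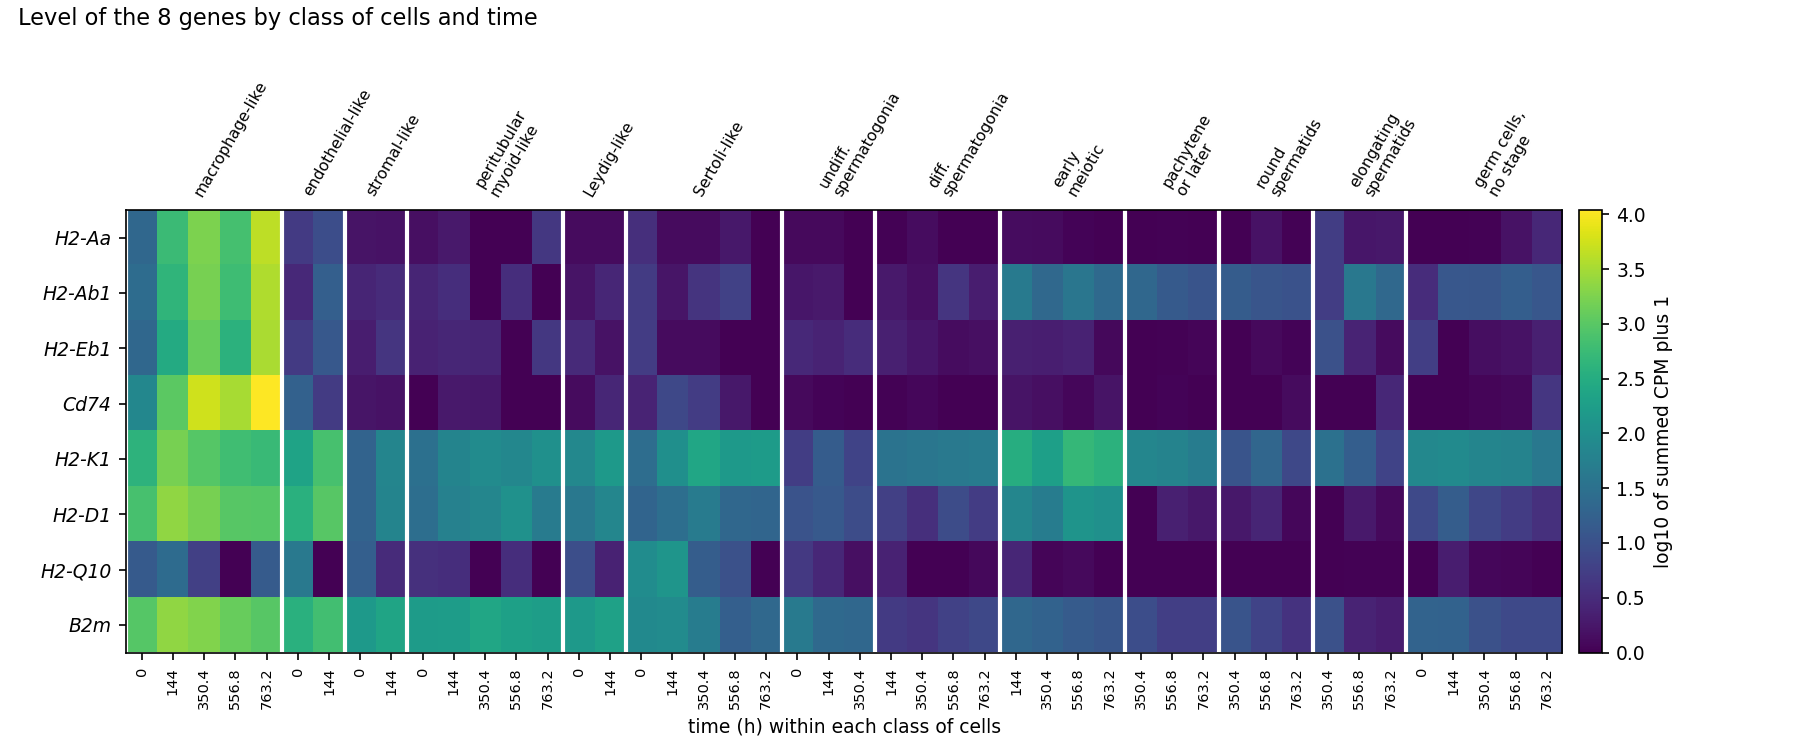
The heat map gives log10 of the summed CPM plus 1 for each gene (down) in each class of cells and time (across, 15 or more cells; red blood cells left out). Among the named classes drawn, the 4 class II genes are brightest in macrophage-like cells, H2-Ab1 also carries signal in meiotic and later germ cells, and H2-Q10 is brightest in Sertoli-like cells at 0 and 144 h.

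In macrophage-like cells the class II genes were above their level in the other cells of the same library at every time. The libraries from 350.4 h on held far more of them in the median cell than the 0 h library. The higher sum at 144 h rested on few cells. The summed level of H2-Aa, H2-Ab1, H2-Eb1 and Cd74 in macrophage-like cells was 143 CPM in the 0 h library (interval 118 to 172) and 2361 CPM in the 144 h library (interval 2220 to 2509). It was 10207 CPM at 350.4 h (interval 9781 to 10648), 4926 CPM at 556.8 h (interval 4566 to 5307) and 22309 CPM at 763.2 h (interval 21245 to 23413). These compare with 8.67, 18.7, 11.1, 20.5 and 14.4 CPM in all other cells. The ratio to the other cells was 16.5, 127, 924, 241 and 1549 along the 5 times, with intervals of 13.4 to 20.2 for the first and 1445 to 1661 for the last. A few cells weigh heavily in these sums. At 0 h 18 of the 279 cells, picked by their class II level, held 70 of the 112 class II UMIs. They gave 1 UMI of the macrophage marker C1qa, and the other 261 cells stood at 55.7 CPM of class II. Without the 3 cells richest in class II UMIs in each library, the ratio was 10.9 at 0 h and 11.6 at 144 h, and 543, 157 and 1175 at the later times. A cluster led by stromal genes (Col1a2, Col1a1) and immune genes (Cd52, Gzmc), which was left unnamed, also held class II. Its 77 cells at 0 h stood at 120 CPM (61 UMIs) and its 16 cells at 144 h at 2774 CPM (319 UMIs, in 8 cells), and it had under 15 cells later. Cd74 there stood at 88.4 CPM at 0 h and 1913 CPM at 144 h, with 24.9 and 24.04% of the Cd74 UMIs of kept cells, where macrophage-like cells held 32.04 and 51.5%.

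All 4 class II genes shared this pattern. Cd74, the invariant chain, which lies apart from the others at chr18:60803848-60812652 on the plus strand of GRCm38, stood at 74.2, 1064, 5594, 3211 and 10985 CPM in macrophage-like cells along the 5 times. H2-Aa stood at 21.7, 560, 1749, 705 and 4316 CPM and H2-Ab1 at 25.6, 441, 1621, 612 and 3599 CPM. H2-Eb1 stood at 21.7, 296, 1242, 399 and 3409 CPM. The order of the 5 times was the same for each gene, lowest at 0 h and highest at 763.2 h, with 350.4 h above 556.8 h. The ratio of H2-Ab1 to H2-Aa UMIs, the beta to the alpha chain of one molecule, stayed between 0.786 and 1.18, and Cd74 made up 45.1 to 65.2% of the class II UMIs.

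Of the members with 30 or more UMIs in both groups together, 7 of 8 were at least 2-fold higher in macrophage-like cells than in the other cells at 0 h, where 9.78% of the 15239 genes measured were. At 144 h it was 7 of 8 against 12.9% of all genes, at 350.4 h 8 of 8 against 13.2%, at 556.8 h 7 of 7 against 14.6% and at 763.2 h 7 of 7 against 15.9%. The one member at least 2-fold lower was H2-Q10 at 0 h, with 12.8 CPM in macrophage-like cells against 48.3 CPM in the other cells, 0.265 times (0.127 to 0.488), where 9.1% of genes were lower. No member was lower at the other times, where 23.2, 22.3, 8.46 and 5.68% of genes were. At 350.4 h the H2-Q10 call rested on 1 UMI in macrophage-like cells and its interval ran from 0.172 to 40.3 times. The class I chains were among the higher members at each time. Summed over B2m, H2-K1 and H2-D1 the macrophage-like level was 2081, 6319, 4423, 2869 and 2462 CPM, against 136, 248.9, 109, 118 and 56.3 CPM in the other cells.

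Between neighbouring times class II and class I moved the same way at 2 of the 4 steps and apart at the other 2. At 144 over 0 h, all 7 members with enough UMIs were at least 2-fold higher, against 15.1% of the 5590 genes measured, with 16.5 times more for the class II sum and 3.04 times more for the class I sum. The class II step at 144 h rests on few cells, since without the 3 richest cells of each library it was 2.29 times (1.65 to 3.18), at 215 CPM in the 144 h library against 94.2 CPM in the 0 h library. H2-Aa then stood at 1.11 times (0.372 to 3.07), H2-Ab1 at 2.63 times, H2-Eb1 at 0.955 times and Cd74 at 3.10 times (2.02 to 4.80). At 350.4 over 144 h the 4 class II genes were at least 2-fold higher (8.48% of genes were) and H2-K1, H2-D1 and B2m stood at 0.572, 0.688 and 0.801 times. The class II sum stood at 4.32 times at that step, and at 27.9 times without the 3 richest cells of each library. At 556.8 over 350.4 h H2-Aa, H2-Ab1 and H2-Eb1 were at least 2-fold lower (12.6% of genes were, and 24.9% higher), at 0.403, 0.378 and 0.321 times, and Cd74 stood at 0.574 times. Class I was lower there too, with H2-K1 at 0.682, H2-D1 at 0.612, B2m at 0.664 and the class I sum at 0.649 times. At 763.2 over 556.8 h the 4 class II genes were at least 2-fold higher again, against 6.02% of genes, by 3.42 times for Cd74 up to 8.55 times for H2-Eb1, while the class I sum stood at 0.858 times. From end to end, 763.2 over 0 h, the class II sum was 156 times higher (129 to 190.3) and the class I sum 1.18 times (1.01 to 1.38), with 4 of 7 members and 11.8% of genes at least 2-fold higher.

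The cells behind these sums were not alike, neither within a library nor between libraries. At 0 h, 35 of 279 macrophage-like cells (12.5%) held any class II UMI, against 5.42% of the other cells. At the later times it was 20 of 37, 23 of 28, 22 of 22 and 19 of 19 cells, against 14.1, 11.1, 16.7 and 9.59% of the other cells. Median depths of the macrophage-like cells were 2050, 10717, 7975.5, 5700.5 and 3947 UMIs, and those of the other cells 4278 at 0 h, 12611 at 144 h and 3052 at 763.2 h. With every cell thinned to 1000 UMIs the macrophage-like shares were 8.60, 24.3, 67.9, 81.8 and 94.7%, against 0.968, 1.68, 0.707, 2.04 and 1.17% of the other cells. The share was lowest at 0 h and highest at 763.2 h after thinning as well. The median macrophage-like cell held 0, 26.2, 2627, 1951 and 20328 CPM of class II. The 3 richest cells held 36.6% of the class II UMIs at 0 h, 91.9% at 144 h and 37.8 to 48.1% later. UMIs of all 4 class II genes stood together in 1, 5, 12, 9 and 17 cells.

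**Figure D2:**
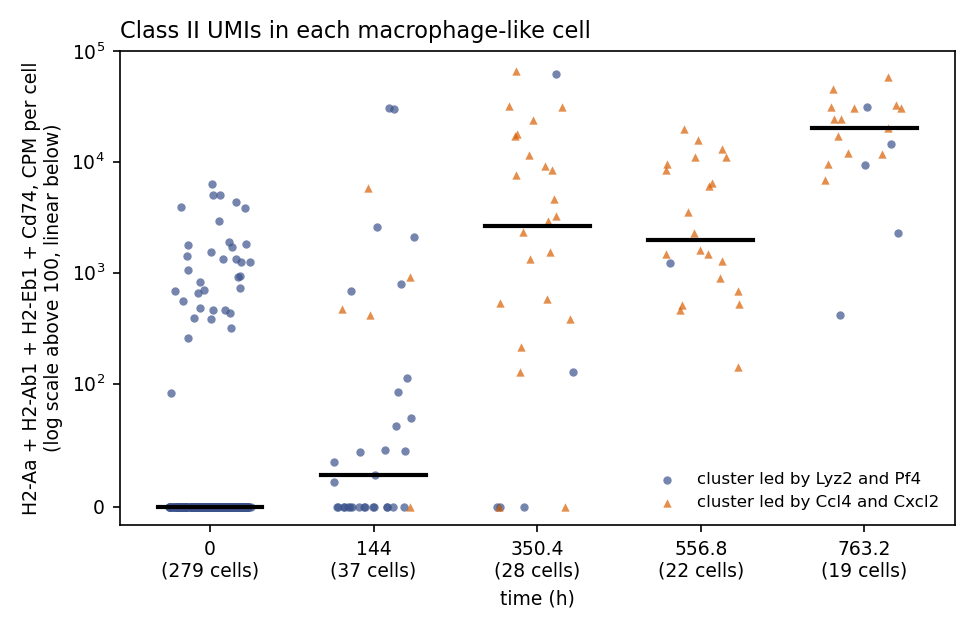
Each point is 1 macrophage-like cell, with its summed class II CPM on the vertical axis (log scale above 100, linear below) at each time, marked by cluster, and bars give the median cell. Most cells at 0 h lie at 0, 3 cells carry 91.9% of the UMIs at 144 h, and the median is 20328 CPM at 763.2 h.

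The macrophage-like class was also made of different clusters at different times. Cluster 8, led by Lyz2, Pf4, Apoe and C1qa, held all 279 cells at 0 h and 32, 5, 1 and 5 at the later times. Cluster 36, led by the chemokine genes Ccl4, Cxcl2 and Ccl3 with C1qa among its leading genes, held 5, 23, 21 and 14 cells from 144 h on. Within cluster 8 the class II level was 143, 2336, 5666, 1216 and 11035 CPM in order of time. The values after 144 h rest on 5, 1 and 5 cells, and 1 cell held 98.8% of the class II UMIs at 350.4 h. At 144 h the 3 richest of its 32 cells held 96.5%. Within cluster 36 it was 2544, 10546, 4993 and 25344 CPM from 144 to 763.2 h, so the order of times from 144 h on held inside that cluster, while its 144 h value rests on 5 cells.

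Several genes of resident macrophages were at 0 in the later libraries, which held fewer macrophage-like UMIs. The summed level of the 8 resident macrophage genes, among them the mannose receptor Mrc1 and the colony-stimulating factor receptor Csf1r, was 1505, 4984, 1726, 755 and 1015 CPM in macrophage-like cells, highest at 144 h. All 8 were seen at 0 and 144 h, while Lyve1 and Cd209f were at 0 at 350.4 h and Cd163, Folr2, Lyve1, Timd4 and Cd209f were at 0 at 556.8 and 763.2 h. The macrophage-like cells held 781814 UMIs at 0 h, against 140474 and 73916 at 556.8 and 763.2 h, where a count of 0 allows up to 21.4 and 40.6 CPM (3 counts). Cd163, Lyve1, Timd4 and Cd209f stood at 2.56 to 20.5 CPM at 0 h, under those limits, so a fall from 0 h was not detectable for them at this depth. Folr2 stood at 88.3 CPM at 0 h, and at 144 h Folr2, Cd209f, Timd4 and Lyve1 stood at 960.2, 596, 94.9 and 79.1 CPM, above the limits. The 5 monocyte genes summed to 189, 535, 645, 299 and 352 CPM. Dendritic cell genes, the other candidate holders of class II, gave 11, 7, 2, 0 and 0 UMIs in these cells. T and NK cell genes gave 1 UMI in all, at 350.4 h. B cell genes gave 18, 14, 6, 2 and 3 UMIs. The part that this change in the cells captured plays in the class II levels was not tested.

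Splitting the macrophage-like cells at 1000 CPM of class II, a description chosen after the values were seen, showed other genes that differed across the line. They were not the same at each time. At 0 h the 18 cells above the line held 70 of the 112 class II UMIs, with 1 UMI of the complement gene C1qa, 0 of Mrc1 and 15 of the monocyte chemokine receptor gene Ccr2 among 28354 UMIs. The 261 cells below it held 1056 UMIs of C1qa, 686 of Mrc1 and 5 of Ccr2 among 753460 UMIs. Another macrophage marker, C1qb, gave 1 UMI above the line and 1168 below it. For Csf1r and Adgre1 the difference was within the counting error. Csf1r stood at 176 CPM above the line (57.3 to 412) and 356 CPM below it. Adgre1 stood at 70.5 CPM above (8.54 to 255) and 159 CPM below. The cell with most class II UMIs, 23, stood at 919 CPM and so lies below the line. At 144 h the 5 cells above the line held 1013 of the 1045 class II UMIs and did carry C1qa, with 486 UMIs among 70262. They also held all 328 UMIs of Cxcl9, a chemokine induced by interferon gamma, and 0 of the resident gene Cd209f, against 0 of Cxcl9 and 264 of Cd209f in the 32 cells below. Ccr2 gave 0 UMIs above the line at 144 h and 11 below it. At 350.4, 556.8 and 763.2 h the cells above the line numbered 17, 16 and 18, against 11, 6 and 1 below it. Ccr2 stood at 271 CPM above and 377 CPM below the line at 350.4 h, and at 207 and 61.5 CPM at 556.8 h, with overlapping intervals both times. C1qa stood at 3474 CPM above and 3936 CPM below at 350.4 h, and at 2551 and 1538 CPM at 556.8 h.

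The wider class II pathway was high in macrophage-like cells as well. Of the 22 genes listed, 13 were measured at 0 h and 10 were at least 2-fold higher in macrophage-like cells than in the others and none lower, with a median log2 ratio of 3.76 against 0.00 over all genes and 9.78% of all genes higher. At 144, 350.4, 556.8 and 763.2 h 12 of 14, 10 of 14, 9 of 14 and 12 of 15 were higher, against 12.9, 13.2, 14.6 and 15.9% of all genes, and the 1 lower gene at 144 h and at 350.4 h was Rfxap. The list holds the 3 class II chains and Cd74, which moved with it by construction. Among the others, Ctss, the protease that trims the invariant chain, stood at 446 CPM in macrophage-like cells against 0.192 CPM in the other cells at 0 h, and at 1532 against 0.461 CPM at 144 h. H2-DMa, a chain of the peptide-loading chaperone, stood at 40.9 against 2.20 CPM at 0 h and 311 against 2.65 CPM at 763.2 h, and its partner H2-DMb1 at 21.7 against 0.398 CPM at 0 h. Ifi30, a thiol reductase of the same compartment, stood at 184 against 41.6 CPM and Cd86, a co-stimulatory ligand, at 52.4 against 0.110 CPM at 0 h.

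The transcription factor genes Ciita and Rfxap, singled out after their values were seen, were at low or few counts. Ciita, the class II transactivator, gave 0, 2, 2, 0 and 0 UMIs in macrophage-like cells, too few for a ratio. Rfxap, a subunit of the factor that binds the X box, stood at 33.9 CPM in macrophage-like cells against 84.3 CPM in the other cells at 144 h, 0.402 times (0.225 to 0.663). At 144 over 0 h within macrophage-like cells 11 of the 12 measured genes of the list were at least 2-fold higher, with a median log2 ratio of 2.14 against −0.07 over all genes, and Ctss stood at 3.43 times (3.01 to 3.92), Cd86 at 4.57 times and H2-DMb1 at 5.30 times.

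Of the 18 class I pathway genes, 7 of 17 measured were at least 2-fold higher and 1 (H2-Q10) lower in macrophage-like cells at 0 h, and 10 of 17, 14 of 17, 8 of 13 and 9 of 13 were higher at the later times, against the same 9.78 to 15.9% of all genes. The 2 lower at 350.4 h were the chaperone genes Calr and Canx, at 0.494 and 0.477 times. Psmb8, an immunoproteasome subunit, stood at 164 CPM in macrophage-like cells against 4.21 CPM in the others at 0 h, and Tap1, a chain of the peptide transporter, at 19.2 against 3.39 CPM. Of the 16 interferon gamma genes 7 of 14 were at least 2-fold higher at 0 h, 11 of 15 at 144 h, 12 of 14 at 350.4 h, 9 of 11 at 556.8 h and 10 of 11 at 763.2 h, with the same shares of all genes. Cxcl9 stood at 741 CPM in macrophage-like cells at 144 h with 0 UMIs at the other times, and Cxcl10, another chemokine of that kind, at 27.1 CPM at 144 h and 3665 CPM at 350.4 h. Of the 21 other class I like genes 7 of 11 were at least 2-fold higher at 0 h and 8 of 12 at 144 h, where 9.78 and 12.9% of all genes were. Among them Fcgrt, the antibody transport receptor that pairs with B2m, stood at 223 against 35.7 CPM at 0 h.

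Pooled over the named classes, somatic cells carried more class I than germ cells at every time, by an amount that differed between the chains. The sum of B2m, H2-K1 and H2-D1 was 191, 355, 583, 458 and 513 CPM in named somatic cells, against 59.8, 203, 90.9, 117 and 53.8 CPM in germ cells. The ratio was 3.19, 1.75, 6.42, 3.93 and 9.55 along the 5 times, with an interval of 1.70 to 1.79 for the 144 h value and 8.69 to 10.5 for the 763.2 h value. It ran from 2.79 to 13.6 when cells were limited to 10% mitochondrial UMIs, and from 1.69 to 5.95 from 144 to 763.2 h at a limit of 50%. The somatic cells compared were 70.3% of kept cells at 0 h, mostly Sertoli-like and stromal-like, and 123 and 102 cells at 556.8 and 763.2 h, of which 22 and 19 were macrophage-like. Without the macrophage-like cells, an alternative chosen after the data were seen, the ratio was 2.71, 1.45, 4.48, 2.17 and 6.502 along the 5 times. The pooled order did not hold for every class. At 144 h the early meiotic cells, at 420 CPM of the class I sum, stood above Sertoli-like (218), myoid-like (294) and stromal-like cells (359). At 556.8 h they stood at 627 CPM, above Sertoli-like (190) and myoid-like cells (380).

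The light chain and the heavy chains differed in this. B2m stood at 120 CPM in somatic cells against 43.4 CPM in germ cells at 0 h, 2.75 times, and at 204 against 4.60 CPM at 763.2 h, 44.3 times (37.3 to 52.4). H2-K1 was 5.46 times higher in somatic cells at 0 h, but stood at 124 CPM in somatic cells against 153 CPM in germ cells at 144 h, 0.809 times (0.782 to 0.838), and at 1.79 times at 556.8 h. Pooled over all named somatic cells, H2-Ab1 was the single member at least 2-fold lower, with 5.76 against 19.9 CPM at 144 h, 0.290 times (0.252 to 0.332). Over the members, 7 of 8 were at least 2-fold higher in somatic cells at 0 h (28.2% of genes were), 6 of 8 at 144 h (29.2%), 8 of 8 at 350.4 h (24.6%), 6 of 7 at 556.8 h (30.3%) and 7 of 7 at 763.2 h (32.1%). At 144 h 32.5% of genes were at least 2-fold lower, and at the other times, with no lower member in the pooled cells, 24.1, 29.7, 24.5 and 21.7%. From 350.4 h on macrophage-like cells held 2153 of 2180, 692 of 702 and 1649 of 1652 somatic class II UMIs. The class II calls there rest on these cells. Of the somatic H2-Ab1 UMIs they held 342 of 351, 86 of 94 and 266 of 267. H2-Ab1 stood then at 2.99, 5.03 and 0 CPM in Sertoli-like and 0, 2.37 and 0 CPM in peritubular myoid-like cells. The alternative without macrophage-like cells covered the class I sum only.

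Among the named somatic classes the endothelial-like cells came next to macrophage-like cells in class I. In the 67 and 62 cells of 0 and 144 h, H2-K1 stood at 223 and 730 CPM, H2-D1 at 365 and 990 CPM and B2m at 363 and 645 CPM. The unnamed cluster of stromal and immune genes stood higher at 144 h, with H2-K1 at 1452, H2-D1 at 1487 and B2m at 1148 CPM in 16 cells. In endothelial-like cells set against all other cells, 5 of 8 members were at least 2-fold higher at 0 h, where 11.4% of genes were higher and 7.01% lower. It was 5 of 8 at 144 h too, where 15.5% of genes were higher. At 144 h the lower ones, against 21% of genes, were Cd74, with 3 UMIs, and H2-Q10, with none. H2-K1 was 3.27 times higher at 144 than at 0 h (2.67 to 4.03) and H2-D1 2.71 times (2.31 to 3.20), with 2 of 3 members and 11.5% of genes at least 2-fold higher. The class II counts in the endothelial-like cells were small, 1 to 12 UMIs for each gene and time.

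The other somatic classes held less. In peritubular myoid-like cells, which line the tubule from outside and contract, B2m stood at 166, 172, 246, 195 and 179 CPM and H2-K1 at 30.2, 64.4, 87.9, 73.5 and 107 CPM along the 5 times. In stromal-like cells H2-K1 stood at 18.5 and 67.0 CPM at 0 and 144 h and in Leydig-like cells, the androgen makers, at 75.5 and 146 CPM, with B2m at 150 and 226 CPM and at 153 and 204 CPM. H2-K1 stood at 2.13 times at 144 over 0 h in peritubular myoid-like and at 3.62 times in stromal-like cells, and short of 2-fold, at 1.94 times, in Leydig-like cells, where 6.72, 6.53 and 4.72% of genes were at least 2-fold higher.

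**Figure D3:**
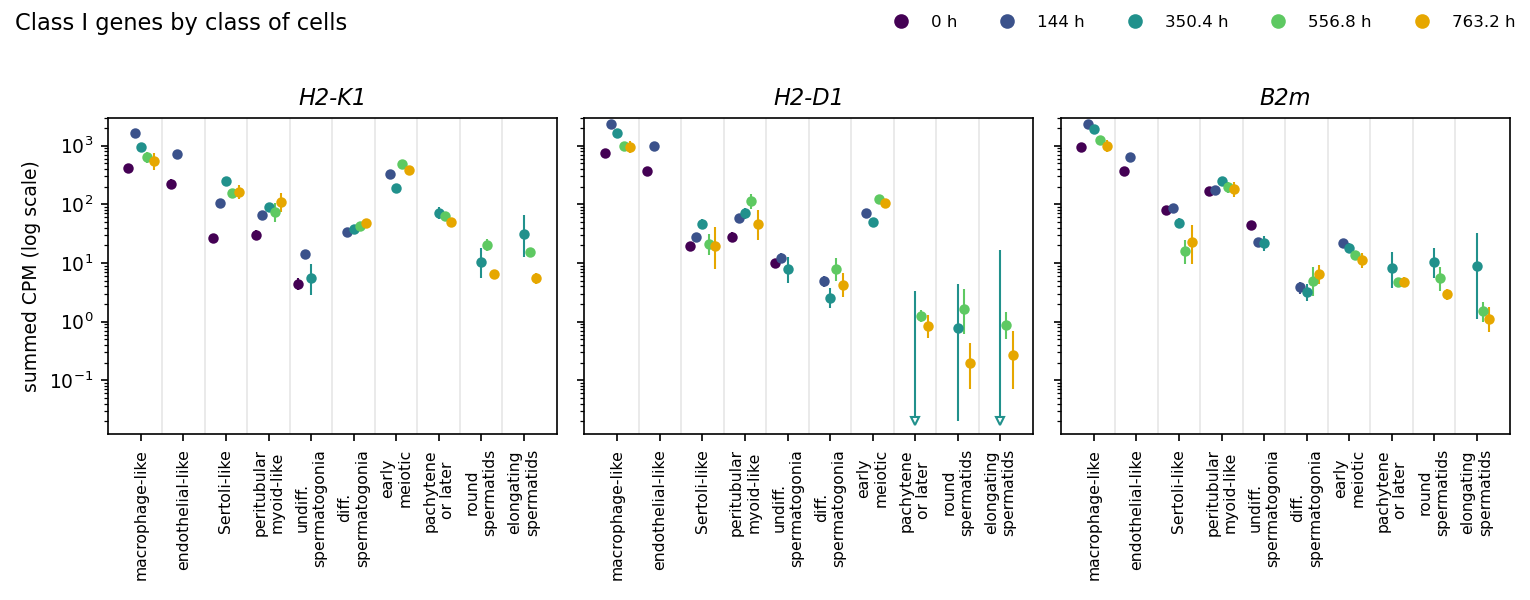
Summed CPM (log scale) of H2-K1, H2-D1 and B2m by class of cells, with 1 point per time and exact 95% Poisson intervals; open triangles mark a count of 0 and classes with under 15 cells are left out. H2-K1 and H2-D1 are high in macrophage-like and endothelial-like cells and again in early meiotic germ cells, where H2-K1 is 192 to 490 CPM, while B2m there is 11.2 to 21.5 CPM.

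In germ cells the heavy chains were highest in the early meiotic cells, which carry the recombination genes Dmc1 and Prdm9 among their markers. H2-K1 stood there at 327 CPM at 144 h (320 to 335), 192 at 350.4 h, 490.4 at 556.8 h and 390 at 763.2 h. H2-D1 stood at 71.7, 49.6, 123 and 106 CPM and B2m at 21.5, 18.0, 13.5 and 11.2 CPM. The class was not uniform at 350.4 h, where cluster 34 held 795 of its 964 cells. Over all libraries that cluster stood at only 79.5 CPM of H2-K1 and 6.37 CPM of H2-D1. Clusters 22 and 23, also early meiotic, stood at 320 and 319 CPM of H2-K1 and 69.0 and 105 CPM of H2-D1. At 556.8 h 95.1% of the 1197 early meiotic cells held an H2-K1 UMI, or 38.3% when thinned, against 14.2% of elongating spermatids (3.19% thinned), with median depths of 8485 and 4521 UMIs.

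Stages on either side were lower. H2-K1 stood at 4.42, 14.1 and 5.50 CPM in undifferentiated spermatogonia at 0, 144 and 350.4 h and at 34.2 to 47.7 CPM in differentiating spermatogonia from 144 h on. It stood at 71.5, 63.6 and 48.8 CPM in pachytene or later spermatocytes, at 10.3, 20.4 and 6.59 CPM in round spermatids and at 31.4 (from 7 UMIs), 15.1 and 5.50 CPM in elongating spermatids from 350.4 to 763.2 h. B2m had another order, with 44.3, 23.02 and 21.6 CPM in undifferentiated spermatogonia and 3.19 to 6.52 CPM in differentiating spermatogonia. At 144 and 350.4 h the intervals of undifferentiated spermatogonia and early meiotic cells overlapped for B2m (20.3 to 26.0 against 19.6 to 23.5 CPM, and 15.8 to 28.7 against 14.9 to 21.5 CPM).

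Set against the other germ cells of the same library, H2-K1 in early meiotic cells was 10.9 times higher at 144 h (10.2 to 11.7), 3.15 times at 350.4 h, 9.41 times at 556.8 h and 14.1 times at 763.2 h (13.3 to 14.9). H2-D1 was 8.89, 8.92, 74.5 and 85.8 times higher, and B2m 1.89, 2.13, 3.12 and 2.59 times. At least 2-fold higher were 3 of 6 members at 144 h, where 11.5% of genes were, 5 of 5 at 350.4 h (2.88%), 5 of 5 at 556.8 h (31.6% of genes higher, 31.2% lower) and 3 of 7 at 763.2 h (32.7%), where H2-Aa, with no UMI, was the 1 lower member (27.5% of genes were). The 350.4 h values depend on the filter, since under a 10% mitochondrial limit H2-K1 stood at 1.81 and H2-Ab1 at 1.74 times, both under 2-fold. At that time 795 of the 964 early meiotic cells came from cluster 34, with a median of 2400 UMIs. At 144 h 1545 of 1573 came from cluster 22 and at 556.8 h 1011 of 1197 from cluster 56. The other germ cells also differed between libraries, so the ratios of different times are not like contrasts. They included 621 differentiating spermatogonia at 144 h, and 1630 round and 1526 elongating spermatids at 763.2 h. At 350.4 h 2328 of them had no stage. Among these, clusters 21, 26 and 37, with 644, 272 and 254 cells, scored highest for early meiotic markers.

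The genes that serve class I did not move with the heavy chains as 1 group in early meiotic cells. At 144 h 3 of 14 measured genes of the class I list were at least 2-fold higher than in other germ cells and 6 were lower, where 11.5% of all genes were higher and 28.7% lower. Besides H2-K1 and H2-D1 the higher one was Calr, the chaperone calreticulin, at 2.42 times (2.37 to 2.47). The lower ones included the immunoproteasome subunit Psmb9 at 0.0642 times, the proteasome activator Psme2 at 0.229 times and the trimming peptidase Erap1 at 0.168 times. Of 12 interferon gamma genes 2 were higher, Ifngr1 at 2.40 and Jak2 at 2.57 times, and 8 lower, against the same shares of all genes, with Irf1 at 0.108 times. None of 9 other class I like genes was higher and 5 were lower, with H2-Q7 at 0.248 times. At the 3 later times H2-Q7 stood higher there, at 3.26, 4.50 and 6.26 times, a gene singled out after its values were seen. At 556.8 h 6 of 13 class I genes were higher and 1 lower, where 31.6% of all genes were higher and 31.2% lower, with Calr at 4.32 and Canx, another chaperone, at 4.40 times and Tapbp, which bridges the transporter and the heavy chain, at 0.406 times.

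H2-Ab1 was the class II gene that early meiotic and later germ cells held most of, with few UMIs of its partner chain. In early meiotic cells H2-Ab1 stood at 45.8, 22.5, 37.9 and 22.97 CPM from 144 to 763.2 h, from 1018, 148, 416 and 107 UMIs. In the same cells H2-Aa was at most 0.360 CPM, H2-Eb1 at most 1.46 CPM and Cd74 at most 0.644 CPM. At 144 h the UMIs there numbered 1018 for H2-Ab1 and 8 for H2-Aa, where macrophage-like cells of that library had 195 and 248. H2-Ab1 made up 91.7, 92.2, 95.9 and 83.6% of all germ cell class II UMIs from 144 h on, against 12.4 to 18.7% in macrophage-like cells. Before meiosis H2-Eb1 led from few UMIs, with 59.3 and 54.8% of the 59 and 31 class II UMIs of undifferentiated spermatogonia at 0 and 144 h. In differentiating spermatogonia at 144 h H2-Eb1 made up 55.8% and H2-Ab1 39.5% of 43 UMIs. At 763.2 h 1 germ cell without a stage held 121 class II UMIs.

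The stages before meiosis held little H2-Ab1 and those after it held more. Undifferentiated spermatogonia stood at 0.765, 0.913 and 0 CPM at 0, 144 and 350.4 h and differentiating spermatogonia at 0.455 to 3.21 CPM. Pachytene or later spermatocytes stood at 21.4, 12.7 and 10.11 CPM and round spermatids at 14.3, 10.8 and 9.40 CPM from 350.4 to 763.2 h. Elongating spermatids stood at 40.6 and 21.8 CPM at 556.8 and 763.2 h, with 1 UMI at 350.4 h. Over all germ cells the level was 0.795 CPM at 0 h, where 1765 of 1798 germ cells were undifferentiated spermatogonia, and 19.9, 10.5, 19.9 and 12.2 CPM at the later times. At 144 h H2-Ab1 was 29.96 times higher in early meiotic than in other germ cells (22.4 to 40.9).

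By cell, 35.2, 11.7, 25.9 and 15.5% of early meiotic cells held an H2-Ab1 UMI from 144 to 763.2 h, and 4.39, 1.66, 4.01 and 2.95% did when thinned. In undifferentiated spermatogonia of the 144 h library, which are deeper (median 29702 against 12683 UMIs), 1.44% held one and none of 347 did when thinned. The germ cells held 7.18% of all H2-Ab1 UMIs of kept cells at 0 h and 78.7, 69.4, 95.3 and 82.5% at the later times, so most H2-Ab1 in the later suspensions lay outside the macrophage-like cells. Of the UMIs of all genes, germ cells held 18875573 of 73641205 at 0 h and 53635379 of 98136469 at 144 h. From 350.4 h on they held 75808866 of 80650641, 106498321 of 109255121 and 107616383 of 110075554. No stretch of 50 letters at the H2-Ab1 transcript ends was shared with another gene.

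**Figure D4:**
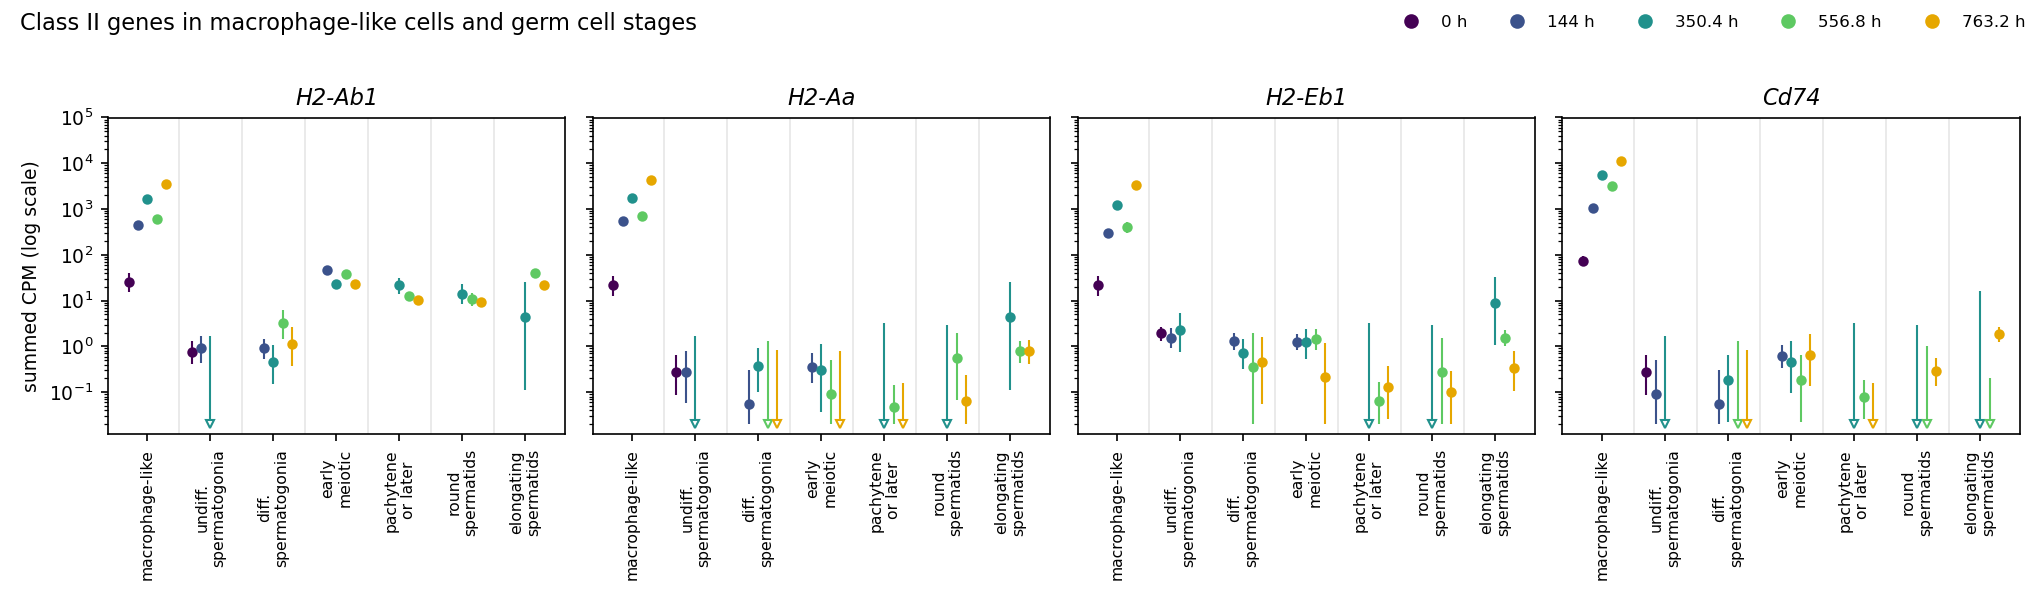
Summed CPM (log scale) of the 4 class II genes in macrophage-like cells and the germ cell stages, with 1 point per time and exact 95% Poisson intervals; open triangles mark a count of 0 and classes with under 15 cells are left out. H2-Ab1 lies between 9.40 and 45.8 CPM from the early meiotic stage on, apart from 1 value from 1 UMI, while H2-Aa and Cd74 stay near the bottom outside macrophage-like cells.

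H2-Q10 was the member of Sertoli-like cells in the first 2 libraries. Its level from 0 to 556.8 h was 92.0 (interval 88.9 to 95.3), 126 (interval 122 to 130), 14.3 (interval 10.3 to 19.2) and 9.23 CPM (interval 4.61 to 16.5), from 3177, 3777, 43 and 11 UMIs. In the 15 cells at 763.2 h none was seen, which allows up to 8.35 CPM (3 counts). Germ cells of the same libraries stood at 3.50, 1.64, 0.158, 0.0657 and 0.0186 CPM. Sertoli-like cells held 90.1, 96.8, 76.8 and 52.4% of the H2-Q10 UMIs of kept cells from 0 to 556.8 h.

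By cell, 42.1, 54.6, 6.16 and 18.8% of Sertoli-like cells held a UMI from 0 to 556.8 h, against 3.39, 2.82, 0.302 and 0.0874% of germ cells. Their median depths were 5693, 9672, 1436.5 and 25587.5 UMIs, against 3862.5, 14133.5, 10583 and 6083 in germ cells. Thinned, the Sertoli-like shares were 7.79, 12.5, 1.76 and 0%, against 0.556, 0.176, 0.0503 and 0.0250% in germ cells. At 350.4 h the 496 shallow cells of cluster 27 (median 1341 UMIs) stood at 19.5 CPM and the 61 deep cells of cluster 38 (median 31036) at 11.9 CPM, both under the 64.7 to 132 CPM of the clusters with 20 or more cells at 0 and 144 h.

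Between neighbouring times H2-Q10 in Sertoli-like cells was 1.37 times higher at 144 than at 0 h (1.30 to 1.43), 0.114 times at 350.4 over 144 h (0.0821 to 0.153) and 0.646 times at 556.8 over 350.4 h (0.300 to 1.27). The interval of the last step includes 1, that is, no difference. Set against all other cells, it was 10.3 times higher in Sertoli-like cells at 0 h, 67.9 times at 144 h, 85.3 times at 350.4 h and 99.7 times at 556.8 h. Over the members, 3 of 8 were at least 2-fold higher in Sertoli-like cells at 0 h, H2-Q10 with H2-Aa at 2.70 and H2-Ab1 at 2.25 times, and Cd74 was lower at 0.457 times, where 11.9% of genes were higher and 28.4% lower. At 144 h H2-Q10 alone was higher of 8 (17% of genes were) and 4 were lower (43.5%), H2-Aa at 0.0708, H2-Ab1 at 0.0340, H2-Eb1 at 0.0878 and H2-D1 at 0.406 times. At 350.4 h 4 of 8 members were higher, the 4 class I members, and 4 lower, the class II members, where 18.4% of genes were higher and 29.5% lower. At 556.8 h B2m was higher at 2.04 times and H2-Ab1 lower at 0.245 times among 7 members (26.6% of genes were higher and 24.3% lower), with H2-Q10 short of 30 UMIs. At 0 h the next highest levels were 42.0 CPM in endothelial-like, 41.2 CPM in red blood and 15.6 CPM in stromal-like cells, and at 144 h the endothelial-like cells held 0 UMIs.

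A pair of further clusters, 28 and 52, held 283 and 641 cells, mostly of the libraries at 556.8 and 763.2 h, and stayed unnamed although Tsx, a Sertoli marker, was among their leading genes. The unnamed cells of those libraries, 272 and 650, outnumbered the 48 and 15 Sertoli-like cells. H2-Q10 had 2 and 0 UMIs in them, H2-K1 stood at 57.9 and 41.3 CPM and H2-Ab1 at 10.5 and 7.33 CPM.

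The classical chains of Sertoli-like cells did not follow H2-Q10. H2-K1 stood at 26.6, 103, 247, 153 and 161 CPM along the 5 times, 3.87 times higher at 144 than at 0 h (3.59 to 4.17) and 2.40 times at 350.4 over 144 h (2.21 to 2.60). H2-D1 stood at 19.1, 27.7, 46.8, 21.0 and 19.5 CPM, and B2m at 80.6, 86.9, 48.5, 15.9 and 22.3 CPM. At 144 over 0 h 2 of 8 members were at least 2-fold higher, H2-K1 and Cd74, where 10.9% of genes were, and 3 lower, the class II chains H2-Aa, H2-Ab1 and H2-Eb1, where 19.6% were. At 350.4 over 144 h H2-K1 was higher and H2-Q10 lower among 5 members, where 12.8% of genes were higher and 7.17% lower. At 556.8 over 350.4 h H2-D1 and B2m were lower among 4 members, where 6.01% of genes were.

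Cd74 and the class II chains parted in Sertoli-like cells. Cd74 stood at 1.51 CPM at 0 h and 6.39 CPM at 144 h, 4.24 times higher (3.11 to 5.88), and its 192 UMIs at 144 h lay in 140 cells, with 2.60% of them in the richest cell. H2-Aa, H2-Ab1 and H2-Eb1 stood at 2.55, 4.03 and 4.14 CPM at 0 h and at 0.333, 0.666 and 0.333 CPM at 144 h. In that library the macrophage-like cells, where Cd74 made up 45.1% of the class II UMIs, also held the 3 chains, whereas in Sertoli-like cells Cd74 made up 82.8%. At 0 h Sertoli-like cells held 70.4% of the H2-Aa and 66.5% of the H2-Ab1 UMIs of all kept cells. They held 34521379 of the 73641205 UMIs of all genes in those cells.

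**Figure D5:**
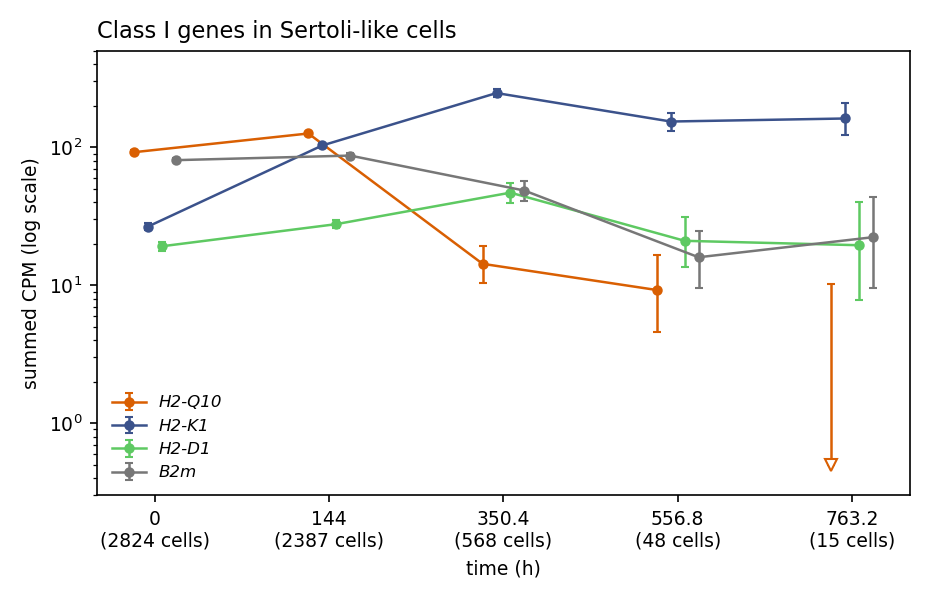
Summed CPM (log scale) of the 4 class I members in Sertoli-like cells at each time, with exact 95% Poisson intervals; the open triangle marks 0 UMIs in the 15 cells at 763.2 h. H2-Q10 is 126 CPM at 144 h and 14.3 CPM at 350.4 h, while H2-K1 is 103 and 247 CPM at those times.

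Over the 47 class and library sums with 15 or more cells, the class II members were most alike and H2-Q10 stood apart. On log2(CPM + 10) the correlation of Cd74 was 0.99 with H2-Aa, 0.98 with H2-Eb1 and 0.92 with H2-Ab1. That of B2m was 0.89 with H2-D1 and 0.63 with H2-K1. Across the classes, B2m correlated with Cd74 at 0.70 and with H2-Eb1 and H2-Aa at 0.68, above its value with H2-K1, and Cd74 with H2-D1 at 0.75. H2-Q10 did not pass 0.39 with any member. Among 17294 other genes the closest to Cd74 were Slc15a3 (0.984), Cd52 (0.981), Cd14 (0.981), Clec12a (0.980) and Ccl4 (0.978). Closest to B2m were Tap2 (0.953), Ifnar2 (0.950), Msn (0.948), Shisa5 (0.942) and Zfp36 (0.939), and closest to H2-Q10 were Stra6, the retinol uptake receptor (0.931), Shisa8 (0.928), E130114P18Rik (0.900), Scx (0.891) and Sfrp4 (0.872). The sums share libraries and depth and few classes set each pattern, so these values describe likeness only.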

How the data were processed

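Single-cell RNA was measured in 5 droplet libraries of whole mouse testis, 1 per time. The authors deposited raw UMI counts per gene and barcode, made with Cell Ranger 3.0.2 per the file headers, and the submitters' processing notes name the build mm10 and Seurat 4.3.0.1 without a role. The sources used here do not give alignment settings or strand use.

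Barcodes with at least 1000 UMIs, 500 genes and under 20% mitochondrial UMIs were kept, and those with a Scrublet score over 0.25 were removed as doublets (153 to 439 per library), since the automatic thresholds marked 0 to 346. Kept cells were clustered in scanpy 1.11.5 (3000 variable genes, 40 components, 15 neighbours, Leiden resolution 2), without H2-, antigen presentation and mitochondrial genes, and named from marker lists. Unnamed stayed 1 cluster of stromal and immune genes and 2 clusters (28 and 52) that scored highest for elongating spermatid markers with Tsx, a Sertoli marker, among their leading genes. Counts were summed per class and library and divided by the summed UMIs of the same cells (CPM), with exact Poisson intervals. Ratios carry exact conditional binomial intervals. A gene is called at 2-fold or more with at least 30 UMIs in both groups together. A count under 3 was set to 3 only in the group with the lower CPM and never turned a direction, a change made after the data were seen, since setting it in both groups called small classes higher. Shares of cells are given before and after thinning every cell to 1000 UMIs. Classes needed 15 cells. The ratio code was tested on simulated data.

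The members and gene lists were chosen with earlier results of these data known. All 8 members are named, list examples are the genes with most UMIs in the higher group, and likeness is Pearson's correlation of log2(CPM + 10) over genes with at least 200 UMIs. Alternatives covered mitochondrial limits, doublets, resolution, depth, marker-only naming, equal weight of cells, free RNA and leaving out the richest cells or, for somatic cells, the macrophage-like ones.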

Additional observations from a re-analysis of the deposited data

Results flagged for a closer look

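The same step in time went in opposite directions in different classes of cells for some members. These differences were not tested, each time being 1 library. At 144 over 0 h H2-Aa stood at 25.8 times in macrophage-like cells (15.8 to 44.9) and 0.131 times in Sertoli-like cells (0.0605 to 0.252). H2-Ab1 stood at 17.2 and 0.165 times and H2-Eb1 at 13.6 and 0.0804 times in the same classes. Without the 3 cells richest in class II in each library the macrophage-like values at that step were 1.11 times for H2-Aa, 2.63 times for H2-Ab1 and 0.955 times for H2-Eb1. At 350.4 over 144 h H2-Ab1 stood at 3.68 times in macrophage-like (31.2 times without those cells) and 0.492 times in early meiotic cells, and H2-K1 at 2.40 times in Sertoli-like cells and 0.391 times in undifferentiated spermatogonia. At 556.8 over 350.4 h H2-D1 stood at 3.08 times in differentiating spermatogonia, 2.48 times in early meiotic cells and 0.448 times in Sertoli-like cells. At that step H2-Ab1 stood at 9.06 times in elongating spermatids, from 1 UMI at 350.4 h, and at 0.378 times in macrophage-like cells. At 763.2 over 556.8 h H2-Eb1 stood at 8.55 times in macrophage-like cells and 0.213 times in elongating spermatids.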

How the results depend on the processing

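Alternatives gave 149 values for 7 kinds of result, of which 93 stayed within the intervals or limits set. These include the background, shares of genes that have no direction, where 24 values stayed and 4 moved. For the class I ratio of somatic over germ cells 10 values stayed and 25 moved. For the class II ratio of macrophage-like over other cells 26 stayed and 14 moved. No ratio counted here turned the direction of a difference of 2-fold or more. Single members had an alternative only for H2-Q10 in Sertoli-like cells, H2-K1 and H2-Ab1 in early meiotic cells and the class II genes in macrophage-like cells over time, where H2-Eb1 at 144 over 0 h went to 0.955 times without the 3 richest cells. The class II ratio of macrophage-like over other cells moved at 0 h to 20.7 with a 50% mitochondrial limit, 11.4 with naming from markers in each cell and 10.9 without the 3 richest cells. At 144 h it moved to 67.5 with equal weight per cell, 58.8 with marker naming and 11.6 without the 3 richest cells. At 350.4 h it was 1074 with equal weights, 1082 after subtracting free RNA and 543 without the richest cells, and at 556.8 h 157 without them. At 763.2 h it was 1270, 1718 and 1062 with equal weights, free RNA subtracted and marker naming, and 1175 without the richest cells. In cells of 3000 or more UMIs the class II level was 69.4 CPM at 0 h and 23464 CPM at 763.2 h. Without the 3 richest cells of each library the class II steps in macrophage-like cells were 2.29, 27.9, 0.536 and 5.26 times in order of time, against 16.5, 4.32, 0.483 and 4.53 times with them.

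The class I ratio of somatic over germ cells moved, with a 10% mitochondrial limit, to 3.61, 2.79, 9.41, 9.47 and 13.6 along the 5 times, and with a 50% limit to 1.69, 4.68, 2.85 and 5.95 from 144 h on. With doublets kept it was 1.69, 5.93 and 3.50 from 144 to 556.8 h, with resolution 1 1.79 at 144 h, with equal weights 1.34, 5.60, 5.18 and 12.7 from 144 h on, and with free RNA subtracted 3.52, 1.80 and 6.85 from 0 to 350.4 h. Without macrophage-like cells it was 2.71, 1.45, 4.48, 2.17 and 6.502 along the 5 times. H2-Q10 in Sertoli-like cells at 144 over 0 h was 1.19 and 1.30 with the 10 and 50% limits, 1.26 with doublets kept and 1.53 with equal weights, and at 350.4 over 144 h 0.206 with the 10% limit.

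In early meiotic cells over other germ cells, alternatives chosen after seeing the data gave H2-K1 at 1.81 times with the 10% limit and 3.37 times in cells of 3000 or more UMIs at 350.4 h, 8.90 times with the 10% limit at 556.8 h, and H2-Ab1 at 1.74 times with the 10% limit at 350.4 h. With 100 UMIs required, the Sertoli-like background was 6.89% higher at 350.4 over 144 h, 3.24% lower at 556.8 over 350.4 h, and 1.36% higher and 2.95% lower at 763.2 over 556.8 h. With a pseudocount of 50 CPM, 2 of the 5 genes named for Cd74 and 3 of the 5 for B2m were shared. The cause of these moves was not tested. No paired analysis was possible because each time has 1 library. The 15 to 48 Sertoli-like and 19 to 37 macrophage-like cells of the smaller classes limit what counts can show there. The number of late Sertoli-like cells also depends on the mitochondrial limit.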
